A study of Caenorhabditis elegans with 4 samples.

Results

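The EFL-1 sites described here are the binding regions (peaks) in the middle of chromosome V of Caenorhabditis elegans at the first larval stage (L1). They were taken from the authors' combined peak list by position alone: every peak on V whose midpoint lay from 5230000 to 15680000 bp of the WormBase WS220 build, a stretch of 10.45 Mb. This rule gave 551 of the 5334 combined peaks and left 304 peaks on the rest of V. The series held 4 samples of wild-type hermaphrodites (N2 in the sample names) at 26 degrees C, namely 2 ChIP-seq libraries (sequenced DNA from precipitated chromatin) and 2 libraries of input DNA. Per the labels' protocols, whole larvae were fixed with formaldehyde, so a peak averages over the cells of the larva. The labels name both a GFP-tagged EFL-1 with an anti-GFP precipitation and a wild-type genotype with "Ab", so precipitation of native EFL-1 and of a tagged form cannot be told apart here. The ChIP libraries each have a list of peaks, and neither input library has a list.

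EFL-1 is a worm E2F transcription factor. It binds DNA with its partner DPL-1, and together with the retinoblastoma protein LIN-35 and the MuvB proteins it forms the DRM complex, the worm counterpart of the mammalian DREAM complex. DRM is known to hold cell-cycle genes down and to keep germline genes silent in body cells, and larvae without LIN-35 are known to arrest as L1 at high temperature. The centres of worm autosomes recombine little and hold many of the genes that all cells need, while the arms of chromosome V are known for large families of chemoreceptor genes. Peaks were not assigned to genes here and are named by their WS220 position.

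Each peak has 1 measurement, a q-value, and its −log10 is called strength below. Read depth is unknown for every library, and strength mixes enrichment with depth. Since there is 1 chromosome V, and neighbouring peaks share their libraries and chromatin, the centres of chromosomes are compared by their values in the combined list and in each replicate list, with no p-value. The labels do not tie the 2 replicates to separate cultures, and their spread may therefore be technical only.

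EFL-1 sites were sparser in the V centre than in the centre of any other autosome, and this order held in all 3 lists. The combined list had 52.7 peaks per Mb in the V centre. The centres of the other 4 autosomes, from 25% to 75% of the chromosome span, had 60.1 on II, 62.6 on IV, 76.5 on I and 90.0 on III. Replicate 1 had 31.9 peaks per Mb in the V centre, against 36.6 to 57.1 in the other centres, and replicate 2 had 43.3, against 52.8 to 77.4. The lists differ in length, so the V centre averaged 37.6 ± 8.05 peaks per Mb and the pooled centres of I to IV 52.0 ± 13.0 (SD, n = 2), spreads that are large beside the difference of the means. Within a list the ratio was steadier. The V centre had 0.737 times the density of the other centres in the combined list, 0.744 times in replicate 1 and 0.707 times in replicate 2, an SD of 0.0261 between replicates. Peaks covered 3.12% of the V centre and 3.87% of the other centres in the combined list, a ratio of 0.806.

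Averaged over its length, the centre was the most densely bound part of chromosome V. In the combined list the part of V left of the centre had 34.0 peaks per Mb and the part to its right 24.1. Replicate 1 had 20.1 and 13.0, and replicate 2 had 29.4 and 20.7, so the centre lay above both flanks in each list.

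**Figure D1:**
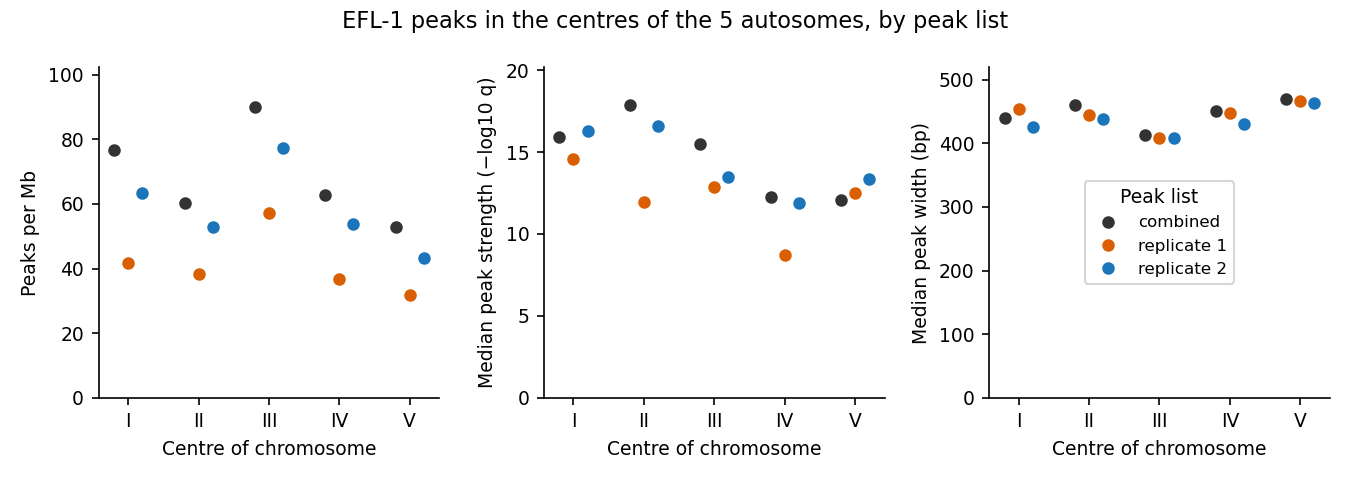
Peaks per Mb (left), median strength as −log10 q (middle) and median width in bp (right) in the centre of each autosome, with 1 point for each list. The V centre is lowest in peaks per Mb in the combined list (52.7), replicate 1 (31.9) and replicate 2 (43.3), and its median widths of 469, 467 and 463 bp are the highest of the 5, while its strengths lie among those of the other centres in both replicate lists.

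Peak strength gave no order of the V centre and the others that held in all 3 lists. Its combined peaks had a median strength of 12.1, with the middle 50% from 4.40 to 45.3, against a median of 15.3 in the pooled other centres. Medians of the single centres ran from 12.3 on IV to 17.9 on II. The order changed in the replicate lists. Replicate 1 gave 12.5 in the V centre and 11.8 in the others, and replicate 2 gave 13.4 and 14.1. The replicate mean was 12.9 ± 0.633 in the V centre and 12.9 ± 1.62 in the others (SD, n = 2), so the difference was smaller than the spread between replicates. In the combined list weak peaks made up a larger share of V centre peaks than of the pooled other centres. A strength under 5 was recorded for 162 of 551 peaks, or 29.4% (exact Clopper-Pearson 95% interval 25.6 to 33.4), against 23.9% (22.1 to 25.8) in the other centres and 26.9% of the whole list. The IV centre had a like share, 28.7%. In replicate 1 a strength under 5 was recorded for 93 of 333 V centre peaks and 364 of 1317 peaks of the other centres, a like share. In replicate 2 it was 118 of 452 and 435 of 1881. Intervals here and below cover counting error only.

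In the combined list, the sites of highest strength were about as frequent among V centre peaks as elsewhere. A strength of 100 or more was reached by 48 of the 551 peaks, or 8.71% (6.49 to 11.4), against 8.79% of the whole list and 8.78% (7.63 to 10.0) of the other centres. In replicate 1 the share was 8.11% in the V centre and 6.38% in the pooled other centres, with II higher at 9.25%. In replicate 2 it was 10.6% and 9.04%, and V had the highest share of all centres. Per Mb the combined list had 4.59 such peaks in the V centre and 6.01 to 6.97 in the other centres. Replicate 2 also put V lowest, at 4.59 against 4.98 to 6.39, but replicate 1 did not, with 2.58 on V between 1.74 on I and 3.54 on II. All 48 were found in both replicate lists. Their strengths ran from 44.3 to 197 in replicate 1, with a median of 103, and from 86.2 to 248 in replicate 2, with a median of 125.

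Sites were unevenly spread within the V centre, and the same stretches were sparse in every list. The centre was divided into 11 windows of 950 kb, counted from its left bound. The first window held 53 combined peaks. Windows 2 to 4, from 6180001 to 9030000, held 38, 38 and 30. Windows 5 to 8, from 9030001 to 12830000, held 52, 57, 67 and 71, and the last 3 windows held 44, 52 and 49. The mean of windows 5 to 8 was 1.75 times that of windows 2 to 4 in the combined list, 1.91 times in replicate 1 and 1.83 times in replicate 2. These 2 groups of windows were chosen after the counts were seen, so a difference between them was built in and is no test. Replicate 1 held 17 to 23 peaks in each of windows 2 to 4 and 32 to 41 in each of windows 5 to 8. Replicate 2 held 25 to 31 and 44 to 55. No other centre had a window as sparse as window 4 in the combined list. With whole windows of the same length, the lowest counts were 42 on II, 45 on IV, 64 on III and 67 on I. Uneven counts were not particular to V. The SD over windows was 12.3 on V in the combined list, against 5.81 on I to 11.8 on IV. It was 8.03 on V in replicate 1, against 4.50 on I to 8.98 on II, and 10.1 in replicate 2, against 2.70 on I to 10.1 on II.

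Window 4 was also without a site of strength 100 or more in any list. In the combined list, 1143 kb separated the strong peak at V 8030853 to 8031828 from the next at V 9175015 to 9175734. This was the longest such interval in the V centre, ahead of 498 kb from 13557199 to 14054940, and it was longer than any in the other centres, where the longest ran from 522 kb on IV to 970 kb on II. The interval was not empty. It held 40 combined peaks, the strongest at 88.7, 18 replicate 1 peaks of up to 52.7 and 34 replicate 2 peaks of up to 89.5. The window with most combined peaks of strength 100 or more was the first, with 8, followed by window 8 with 7.

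**Figure D2:**
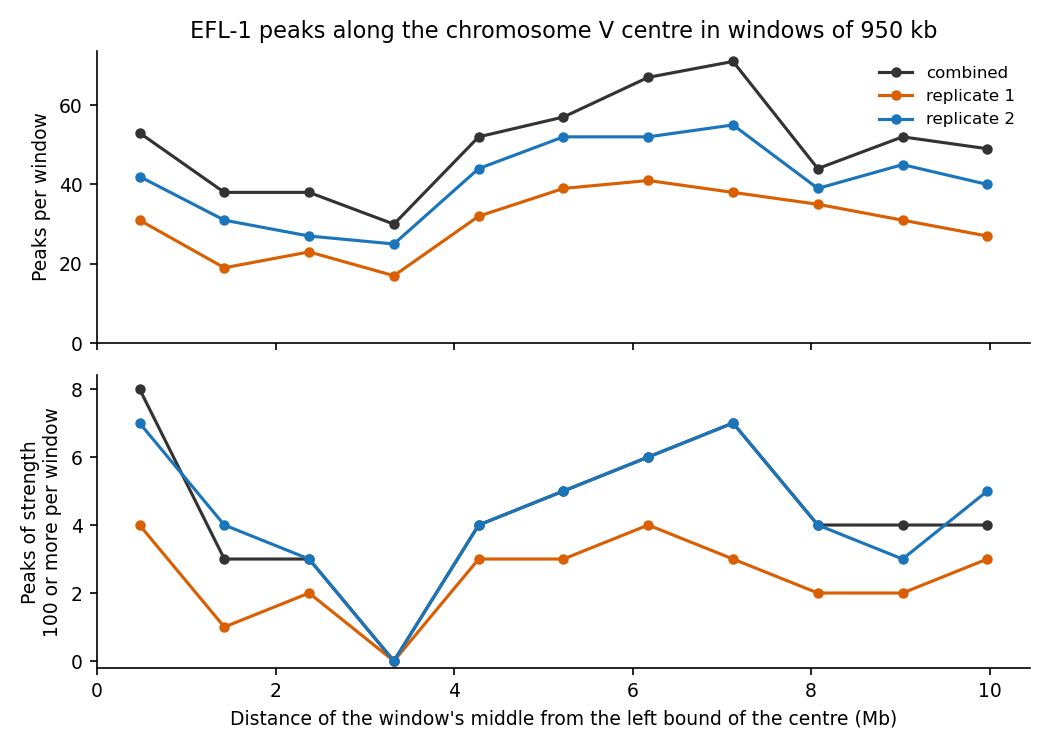
Number of peaks (upper panel) and number of peaks of strength 100 or more (lower panel) in 11 windows of 950 kb, against the distance in Mb of each window's middle from the left bound of the V centre, for the 3 lists. The combined counts fall to 30 in window 4 and rise to 71 in window 8, both replicate lists follow the same course, and window 4 holds no peak of strength 100 or more in any list.

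The next comparison asked how far the replicates marked the same V centre sites. Of the 551 combined peaks, 309 overlapped a peak of both replicate lists by at least 1 bp, which is 56.1% (51.8 to 60.3), against 56.1% of the whole combined list and 57.7% (55.6 to 59.8) of the other centres. A further 140 peaks (25.4%, against 27.8% of the whole list) overlapped replicate 2 only, and 84 (15.2%, 12.3 to 18.5, against 14.7%) overlapped neither. Peaks of replicate 1 only were few but made up a larger share than elsewhere. There were 18 of them, or 3.27% (1.95 to 5.11), against 1.46% of the whole list and 1.27% (0.848 to 1.84) of the other centres, where single centres had 0.873% to 1.61%. The V centre interval lies above that of the pooled other centres but overlaps that of each single centre, as on II (0.615 to 3.12). No test was made. These 18 peaks were weak, with a median combined strength of 4.25 and a highest of 15.1.

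Combined strength separated the sites by how they were found. It draws on the same libraries as the replicate lists, so such a link is partly built in. All 219 V centre peaks of strength 20 or more were found in both replicates, namely 171 from 20 to 100 and the 48 above. From 5 to 20, 88 of 170 peaks were found in both, or 51.8% (44.0 to 59.5), and under 5 it was 2 of 162, or 1.23% (0.150 to 4.39). The other centres showed the same course, with 100% of peaks at 100 or more found in both, 99.7% from 20 to 100, 43.3% (39.6 to 47.0) from 5 to 20 and 0.760% under 5. The peaks in both lists had a median combined strength of 38.2. The median was 5.16 for replicate 2 only and 2.72 for neither. Seen from the replicate lists, 315 of 333 replicate 1 peaks of the V centre overlapped a replicate 2 peak, or 94.6% (91.6 to 96.8), against 97.6% (96.7 to 98.4) in the other centres. In the other direction it was 312 of 452, or 69.0% (64.5 to 73.3), against 68.1%.

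Shared V centre sites kept their order between replicates and shifted in level. Across the 309 sites, which share 2 libraries and are not independent, Spearman's rho of replicate 1 and replicate 2 strength was 0.92, and it was 0.91 to 0.94 in the other centres. Replicate 2 was stronger at 286 of the 309 sites, or 92.6%, and replicate 1 at 23. In the other centres replicate 2 was stronger at 1205 of 1269 sites, and at 93.0% to 97.4% of them in single centres, so the other centres showed the shift too. Per site, replicate 2 exceeded replicate 1 by a median factor of 1.75, with the middle 50% from 1.27 to 2.54, against medians of 1.83 on II to 2.01 on IV. Of the 50 strongest of these sites in replicate 1, 44 were also among the 50 strongest in replicate 2, and of the 10 strongest 6 were. The sites also agreed in place, with a median distance of 19 bp between the midpoints of the replicate 1 and replicate 2 peaks and a largest distance of 795 bp.

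**Figure D3:**
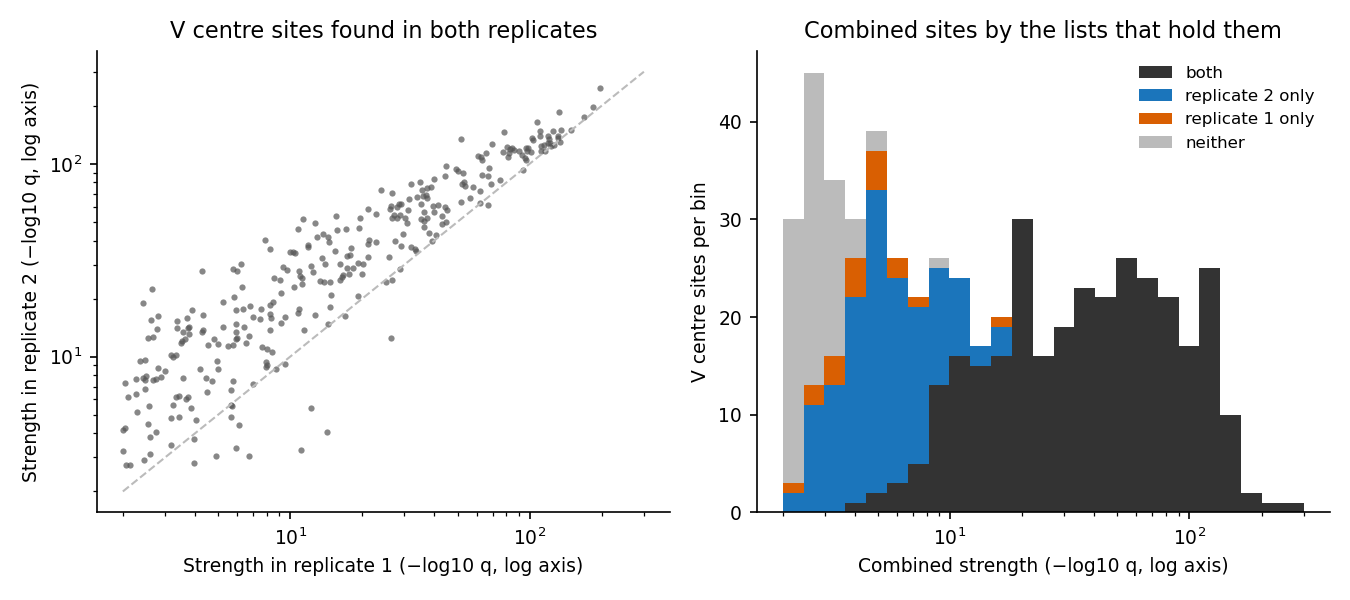
Left, strength in replicate 2 against strength in replicate 1 (−log10 q, log axes) for the 309 V centre sites found in both, with equal strength as a dashed line. Right, the 551 combined sites by combined strength (log axis), stacked by the replicate lists that hold them. Most points lie above the line (286 of 309), and sites found in neither replicate or in 1 alone have strengths of at most 17.5.

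The 12 strongest V centre sites found in both replicates had a median width of 1002 bp and ranged from 600 to 2748 bp, against a median of 469 bp for all V centre peaks. The strongest, at V 10031190 to 10032184, was 995 bp wide and had strengths of 285 in the combined list, 197 in replicate 1 and 248 in replicate 2. It ranked 3 among all combined peaks, 6 in replicate 1 and 5 in replicate 2. The next, at V 14054940 to 14055539, was 600 bp wide and nearly equal in the replicates, with 205 in the combined list, 184 in replicate 1 and 197 in replicate 2. These 2 sites were the strongest of the V centre in both replicates as well.

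The replicates drew some strong sites differently. At V 15189270 to 15191385, with a combined strength of 200.4, replicate 2 called a peak of 2056 bp with a strength of 186, whereas the best replicate 1 peak covered 705 bp with a strength of 133. At V 13312227 to 13313463, with a combined strength of 149, replicate 2 called 1214 bp with a strength of 135. The strongest replicate 1 peak there covered 554 bp with a strength of 51.6. This was the largest difference in strength among the 12 strongest sites found in both replicates, with a rank of 605 in replicate 1 and 140 in replicate 2. Replicate 1 had 5 peaks from V 13300001 to 13400000, where the combined list had 4. A further, weaker replicate 1 peak may thus lie within this site. By contrast, the 2748 bp peak at V 9342905 to 9345652 was called at 2626 and 2646 bp, with strengths of 111 and 117 in the replicates and 167 in the combined list.

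The other 7 of the 12 differed less in outline. The peak at V 12040880 to 12041747 had 163 in the combined list, 108 in replicate 1 and 165 in replicate 2. At V 5939168 to 5940649 the values were 163, 168 and 174, and at V 5917369 to 5918368 they were 147, 149 and 150, so here the combined strength was below both replicates. These 2 peaks lay 20799 bp apart. The peak at V 8030853 to 8031828, at the edge of the long interval described above, had 153, 136 and 149. That at V 6043176 to 6044316 had 151, 78.1 and 146. That at V 15569268 to 15570271 had 149, 125 and 148. The last of the 12, at V 5268871 to 5269584, had 148, 120 and 139 and was the first peak inside the left bound. In all 12 replicate 2 was the stronger, and in 9 of the 12 the combined value exceeded both replicates. Over the 309 V centre sites found in both replicates, these counts were 286 and 271.

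Strong sites lay on both sides of the left bound and just beyond the right one. The nearest peak outside the left bound, at V 5203943 to 5204790, was strong in the 3 lists, with 181, 169 and 172. On the right, the last peak inside, at V 15663915 to 15664492, was weak, with a combined strength of 4.95 and 3.82 in replicate 2, and was missing from replicate 1. The first outside, at V 15765941 to 15766802, had a strength of 145 in the combined list, 145 in replicate 1 and 144 in replicate 2.

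V centre peaks were wider than those of the other centres by a small margin that recurred in each list. The median width was 469 bp in the combined list, against 413 to 460 bp in the other centres, 467 bp in replicate 1, against 408 to 454 bp, and 463 bp in replicate 2, against 408 to 438 bp. The replicate mean was 465 ± 2.83 bp in the V centre and 430 ± 7.07 bp in the pooled other centres (SD, n = 2), a difference larger than the spread between replicates. Width rose with strength in the V centre, with a Spearman's rho of 0.58 across its 551 peaks. In the combined list the V centre was wider at each strength. Median widths were 349, 428.5, 571 and 793 bp for strengths under 5, 5 to 20, 20 to 100 and 100 or more, against 311, 401, 490.5 and 717 bp in the pooled other centres. Set against single centres, V was first, or level with the first, in 7 of 12 combinations of list and strength group. The IV centre was wider among the strongest combined peaks, at 812 bp, and among replicate 1 peaks of strength 20 to 100, at 601 bp against 483 bp on V.

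**Figure D4:**
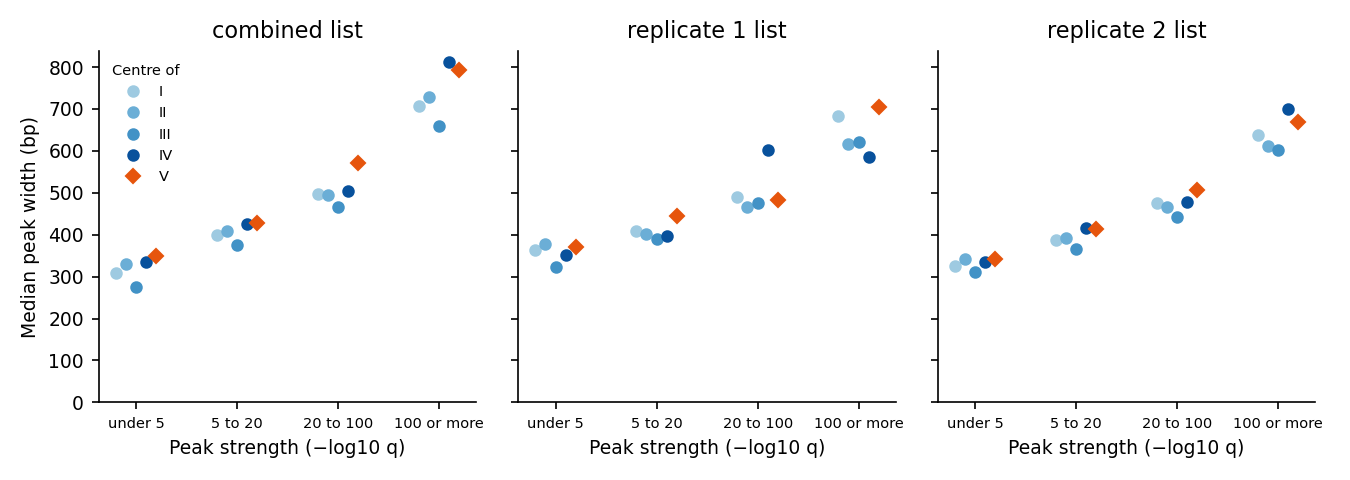
Median peak width in bp by strength group (−log10 q), with 1 panel for each list and 1 point for each autosome centre (V as orange diamonds). In the combined list the V centre stands at 349, 428.5, 571 and 793 bp and is exceeded by another centre, IV, among peaks of strength 100 or more, while in the replicate lists its place varies with the group.

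Broad regions took a larger share of V centre peaks than of the other centres, with intervals that overlap. A width of 1 kb or more was found for 54 of the 551 peaks, or 9.80% (7.45 to 12.6), against 7.84% of the whole list and 6.91% (5.89 to 8.05) of the other centres. The II centre had a like share, 9.15%. The broad V centre peaks had a median strength of 46.6, 46 of the 54 were found in both replicates, and 15 reached a strength of 100. The 152 broad peaks of the other centres had a median strength of 63.9, with 120 found in both and 42 reaching 100. The 5 widest had combined strengths of 46.7 to 103, above the 45.3 that 25% of V centre peaks exceeded. The widest, 4448 bp at V 11530647 to 11535094, had a combined strength of 64.0. The strongest replicate 1 peak that it overlapped was 897 bp wide, with a strength of 11.8, and it may overlap a weaker one as well. In replicate 2 it overlapped a 3252 bp peak of strength 38.0 and also a weaker peak, of strength 5.38, at V 11534459 to 11535924. The next, 3325 bp at V 7727621 to 7730945, had strengths of 92.5 in the combined list, 27.8 in replicate 1 and 59.9 in replicate 2. The peak of 3027 bp at V 6098605 to 6101631 had 103, 44.3 and 86.2. That of 2985 bp at V 13656073 to 13659057 had 57.2, 17.3 and 28.7, and that of 2877 bp at V 6514865 to 6517741 had 46.7, 15.3 and 35.2. In these 5 broad regions replicate 2 was the stronger and the combined value exceeded both, as at most V centre sites found in both replicates.

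The widest V centre region of both replicate lists was absent from the combined list. Replicate 1 had a peak of 9359 bp at V 6220727 to 6230085 with a strength of 144, which ranked 34 among all its peaks. Replicate 2 had a peak of 7615 bp at V 6222362 to 6229976 with a strength of 146, ranked 80, and a second peak of 1119 bp at V 6220755 to 6221873 with a strength of 13.3. No combined peak overlapped any of them. The nearest combined peaks were weak, at V 6213813 to 6214229 with a strength of 3.33 and at V 6230725 to 6231178 with 5.34, and both were found in replicate 2 only. Over all chromosomes, it was the 1 peak of strength 100 or more without a combined partner in each replicate list. Among V centre peaks, 1 of replicate 1 and 4 of replicate 2 had none, and apart from this region they had strengths of 2.37 and 2.05. Why the combined list lacks the region was not tested.

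The V centre differed from the other centres in its long gaps more than in its short ones. In the combined list the II centre came closest to it in the median gap and in the bound of the 25% longest gaps. The IV centre came closest in gaps over 100 kb and in the longest gap. The median gap between neighbouring combined peaks, from end to next start, was 9416 bp, against 6279 bp on III to 9247.5 bp on II. The 25% shortest gaps were under 2393 bp, within the 1995.5 to 2998.5 bp of the other centres, whereas the 25% longest were over 25079.8 bp, against 14014.5 to 22087 bp. Replicate 2 also had its longest median gap in the V centre, 11899 bp against 7638.5 to 11116 bp. In replicate 1 the V centre, at 16618.5 bp, came after IV, at 17653 bp. Gaps over 100 kb numbered 9 in the V centre, 6 in the shorter IV centre, 2 each on I and II and 0 on III. The longest gap on IV was 190422 bp. The longest in the V centre was 197581 bp, from 15191386 to 15388966, directly beside the site of strength 200.4 described above. It was followed by 197237 bp, from 7237691 to 7434927, and 135478 bp, from 13176749 to 13312226. Neither replicate list had a peak inside these 3 gaps.

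**Figure D5:**
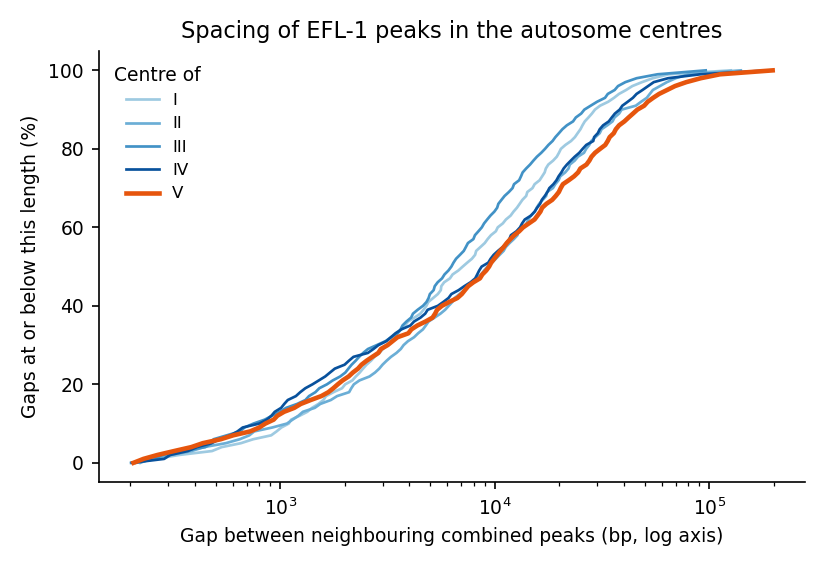
Share of gaps at or below a given length, in percent, against gap length in bp (log axis) for neighbouring combined peaks in each autosome centre. The curves run close together at short gaps, and the V centre curve (thick, orange) lies furthest to the right at long gaps, with a median of 9416 bp and a longest gap of 197581 bp.

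Close neighbours were about as common as elsewhere. Of the 551 peaks, 120 had a combined peak less than 1 kb away, or 21.8% (18.4 to 25.5), against 20.2% of the whole list and 20.9% (19.2 to 22.6) of the other centres. Single centres ranged from 15.7% on I to 25.8% on IV. No gap in any list was shorter than 200 bp, and the shortest in the V centre was 207 bp in the combined list and 201 bp in each replicate list, so sites nearer than that do not appear as separate peaks. The 120 peaks formed 51 runs, of which 36 held 2 peaks, 13 held 3, 1 held 4 and 1 held 5. Peaks in runs had a median strength of 8.33 and were found in both replicates in 45% of cases, against 15.5 and 59.2% for the 431 peaks without a close neighbour. In the other centres this contrast was smaller, with 13.9 and 54.7% for peaks in runs against 15.7 and 58.5% for the rest, and the difference between the contrasts was not tested.

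The run with most peaks, from V 14847209 to 14851632, was a string of weak sites. Its 5 peaks had combined strengths of 8.36, 10.9, 9.25, 3.34 and 5.70 from left to right. Replicate 2 held 4 of them, with strengths of 3.46 to 6.77, and replicate 1 held the first and the third, with 3.17 and 2.29. The run of 4, from V 11817337 to 11824432, included a broad peak of 2726 bp with a strength of 4.71 that neither replicate held, and ended in a site of strength 26.0. The next run, one of the 13 with 3 peaks, from V 10535312 to 10538028, had another form. A peak of 1228 bp with strengths of 110.7 in the combined list, 101 in replicate 1 and 116 in replicate 2 lay between peaks of 6.94 and 5.85, both of replicate 2 only.

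By combined count, the densest stretches of 100 kb were in the middle of the centre, by a margin of few peaks. The windows V 10000001 to 10100000, 11000001 to 11100000 and 11500001 to 11600000 held 12 combined peaks each, against a median of 5 over the 103 such windows and 3 windows with none. Of these 12 peaks, 6, 5 and 7 were found in both replicates. The first of these windows holds the strongest V centre site. In replicate 2 the counts were 10, 7 and 12, and in replicate 1 they were 6, 5 and 9. The window V 15500001 to 15600000, near the right bound, held 11 combined peaks, 11 of replicate 2 and 7 of replicate 1. The place of the densest windows thus differed between lists.

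Sites outside the replicate lists were weak in the combined list, a link that the shared libraries partly build in. Of the 84 found in neither list, the strongest was a 1903 bp peak at V 13087517 to 13089419 with a combined strength of 8.31. It was followed by the 2726 bp peak of the run described above and by a 764 bp peak at V 11122416 to 11123179 with 4.69. All 3 had a combined peak less than 1 kb away. The strongest sites of replicate 2 only were at V 5580457 to 5580946, V 8936060 to 8936580 and V 12951148 to 12951540, with combined strengths of 17.5, 16.1 and 15.9 and replicate 2 strengths of 16.9, 13.9 and 14.2. The strongest of replicate 1 only, named after its value was seen, was at V 5838581 to 5839573, with 15.1 in both the combined and the replicate 1 list.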

How the data were processed

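Peak lists of 2 EFL-1 ChIP replicates and 1 combined list were used. Per the file headers, positions are on WS220, and per the deposited source column the authors called peaks with PeakSeq. Comments in the files record a lift-over. The PeakSeq version, aligner, use of input and way of combining were not given in the sources used here. Each peak's 1 deposited measurement is a q-value of at most 0.01, and its −log10 was taken as strength. No read counts were used here, so depth is unknown. Lists were read with Python 3.11.15, pandas 2.3.3 and scipy 1.17.1, and the matching was checked on simulated peaks. An overlap of 1 bp or more made a match, with the strongest partner taken. The span of a chromosome ran to its last peak end in any list. Named peaks were the 12 strongest V centre peaks in both replicates, the 5 widest, the 3 strongest in neither list and in 1 list, replicate peaks without a combined partner, the 3 longest gaps, densest windows and largest runs, and the peaks at the bounds. Members, lists and limits were chosen with earlier results of these data known. No gene or sequence was assigned, since the gene table at hand is of another build (WBcel235).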

Additional observations from a re-analysis of the deposited data

How the results depend on the processing

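Over 5 results, 18 of 33 alternative values moved by no more than the replicate SD (for the share, lay inside its 95% interval), 13 moved further and 2 changed direction. Leaving out either replicate gave ratios of V centre to other centres of 0.707 to 0.744 for density (0.737 as reported), 0.951 to 1.06 for median strength (0.787), 1.07 to 1.09 for width (1.08) and 1.17 to 1.27 for gaps (1.24). The strength ratio thus changed direction with replicate 1 alone, at 1.06, and also among the stronger 50% of combined peaks, at 1.08. It was 0.906 with peaks less than 1 kb apart joined and 0.974 for peaks in both replicate lists. The stronger 50% gave 0.661 for density, 1.15 for width, 1.55 for gaps and 97.7% for the share in both lists, which by construction leaves out weak peaks. Peaks in both lists gave 1.14 for width, and the median of the 4 centres as reference gave 1.06. A centre from 33.3% to 66.7% of the span gave 1.37 for gaps. Covered bases, chosen after seeing the data, gave 0.806 for density. For the other moved values the cause was not tested. What depth limits was not assessed, since read numbers are unknown. No paired analysis was possible because neither input library has a peak list.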

Other observations

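Runs of close peaks in the V centre were led by weaker sites than the pooled runs of the other centres. Over the 51 runs of V centre peaks less than 1 kb apart, the strongest peak of a run had a median combined strength of 18.7 and the next strongest 5.05. Over the 209 runs in the centres of I to IV the medians were 42.0 and 6.10. A peak of strength 100 or more led 5 of the 51 and 30 of the 209 runs. These values were compared after the lists were seen, with no test and without a split by single centre.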
